A study of Homo sapiens with 10 samples.

Results

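The genes described here encode large glycoproteins of the extracellular matrix, the secreted meshwork around cells. The set was a fixed list of 10 symbols, HSPG2, FN1, FBN1, FBN2, LAMA4, LAMB1, LAMC1, TNC, VCAN and THBS1, looked up in an RNA-Seq table and a Ribo-Seq table. It was put together with measured values of these libraries in view, so the changes of the members describe how they were chosen and carry no test. Of the 10 genes, 9 were found among the 11258 transcripts listed in both tables. FBN2, which encodes fibrillin-2, was listed in neither by symbol or by gene identifier and is not analysed here. RNA-Seq reads poly(A) RNA, and Ribo-Seq reads the mRNA fragments covered by ribosomes.

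The cells were BJ-hTERT, a human foreskin fibroblast line immortalised with telomerase (hTERT). Cells were left without nutlin-3a (control) or kept on nutlin-3a for 2, 4, 6 or 19 h. Nutlin-3a inhibits MDM2, the protein that keeps p53 low, and so raises p53. Each of the 5 conditions had 1 RNA-Seq and 1 Ribo-Seq library, all of this one line. No difference below therefore has a replicate check, no p-value is given, and every error is a counting error alone. Levels are in FPKM, reads corrected for the length of the transcript and the depth of the library. For 99.96% of 11258 transcripts 1 length fitted both assays, so Ribo-Seq was not scaled to the coding sequence alone. Ribo-Seq levels and ratios of Ribo-Seq to RNA-Seq can therefore differ between genes with the coding share of the transcript. Changes of a gene against its own control are free of that share only if reads split alike inside and outside the coding sequence. In the study's sample list the coding share of Ribo-Seq reads differed between a control and the nutlin-3a libraries of 6 and 19 h. The part of this in the changes was not tested. Depth ran from 23845559 to 27554288 reads per RNA-Seq library. Ribo-Seq was shallower, from 7744900 reads at 19 h to 14460726 at 4 h. All 11 fibroblast markers reached 5 FPKM in the RNA-Seq table, whereas none of 6 epithelial and none of 5 endothelial markers did. The p53 target CDKN1A, the cell-cycle inhibitor p21, stood at 68.6 FPKM in the RNA-Seq control and 1316 at 19 h, as a check of the treatment, and MDM2, another p53 target, at 14.9 and 259.

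Matrix glycoproteins are made on ribosomes bound to the endoplasmic reticulum, folded there with many disulphide bonds and secreted as very large chains or as multimers. In fibroblasts, fibronectin and fibrillin form fibrils and microfibrils, laminins and perlecan build basement membranes, and tenascin-C and thrombospondin-1 are matricellular proteins that alter how cells attach. Their mRNAs are long, and a ribosome needs many codons to complete each chain.

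How an mRNA starts can bear on its translation, since transcripts with a terminal oligopyrimidine (TOP) start, a C followed by a run of pyrimidines, are known to be translated under control of mTOR. The start windows of the 9 measured members are therefore shown, each with 10 bases before and 15 bases from the annotated start, read 5' to 3' on the gene's strand. They come from RefSeq on GRCh38.p14, where all 10 listed genes had a window. The capitals mark the first 5 transcribed bases.
FN1 (chr2:215436054-215436078, minus strand): gcgctcggacGCCCGcgccggctgt
THBS1 (chr15:39581069-39581093, plus strand): ccgccttgccAGCCGctgcgcccga
TNC (chr9:115118143-115118167, minus strand): tggctgcaccGGCCAcagcctgcct
VCAN (chr5:83471734-83471758, plus strand): gtcacaacccGCATTtgaacttgca
FBN1 (chr15:48644956-48644980, minus strand): ccgcctcgggGATTTgtctctgtgt
HSPG2 (chr1:21937296-21937320, minus strand): agagggccgcGCTGTcccgagctgg
LAMA4 (chr6:112254553-112254577, minus strand): gaatgaatgtGAGAAggaagccagg
LAMB1 (chr7:108003147-108003171, minus strand): ttctaattccCTTCTttgggctcgg
LAMC1 (chr1:183023410-183023434, plus strand): ccgggggcgcGCACTcgggcacgcg

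A C at the annotated start followed by 4 pyrimidines (C or T), looked for at that position and strand only, was present in 1 of these genes, LAMB1. It was present in 4.07% of the 35116 promoter windows of the annotation. The p53 half-site consensus, searched on both strands of the window from 250 bases before to 50 bases after the start, was in none of the 10 listed genes and in 6.63% of all windows. These are matches of letters in a short window, and nothing about binding follows from them.

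Ribosome density (the Ribo-Seq level) of the 8 more abundant members was between 1.91-fold (LAMB1 at 6 h) and 7.76-fold (HSPG2 at 19 h) of the control at 2, 6 and 19 h. Their RNA level was between 0.616-fold (HSPG2 at 6 h) and 1.70-fold (LAMA4 at 19 h) of the control over all 4 times. At 4 h their density was between 0.885-fold (LAMB1) and 1.63-fold (THBS1) of the control. A gene counted as tested if, in RNA-Seq and in Ribo-Seq alike, 1 or more libraries reached 5 FPKM, which 7015 genes did. Of the 9 members, 8 passed, and VCAN did not. LAMA4 passed in Ribo-Seq only through the libraries of 2, 6 and 19 h, where it was high, and the other 7 were above 5 FPKM in every library of both assays. Changes are log2 ratios of a treated library to its control of the same kind, with values under 1 FPKM set to 1, and a gene was called at a 2-fold change, 1 on the log2 scale. In ribosome density 8, 0, 7 and 8 of the 8 tested members were called higher at 2, 4, 6 and 19 h, where 2.12%, 2.58%, 5.26% and 6.22% of all tested genes were. In RNA none of the 8 was called in either direction at any time, where 0.941%, 2.1%, 7.14% and 9.59% of tested genes were. Translational efficiency (TE) is the Ribo-Seq level over the RNA-Seq level. In TE 6, 0, 8 and 8 of the 8 were called higher, where 1.14%, 0.87%, 3.21% and 1.94% of tested genes were. As the list was chosen on these values, the counts are a description and nothing is read from the gap to all genes. The 4 comparisons share 1 control library per assay.

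These counts depended on the control library. Against the 2 h library in place of the control, 1 of the 8 tested members (HSPG2) was called higher in TE at 6 h and 0 at 19 h, where 0.841% and 0.428% of tested genes were. At 4 h 6 were called lower than at 2 h, where 0.513% of tested genes were. The control and 4 h Ribo-Seq libraries were thus alike for these genes and stood apart from those of 2, 6 and 19 h. The 4 h library was the deepest of the Ribo-Seq libraries. The study describes a batch effect between sequencing runs and set each condition against a control of its own run. Its sample list places the libraries of 6 and 19 h directly after a control, in both assays, and does not hold those of 2 and 4 h, whose run is not given in the sources used here. The part of the run in the difference was not tested.

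Fibronectin (FN1, ENSG00000115414) is the main cell-adhesion glycoprotein of the fibroblast matrix and was recovered with a transcript of 8905 nt. Its RNA level was 1249 FPKM in the control and 1218, 1496, 1433 and 2114 FPKM at 2, 4, 6 and 19 h. Its Ribo-Seq level was 147 FPKM in the control and 476, 220.1, 696 and 781 FPKM at the same times. Ribo-Seq was thus lowest in the control and 4 h libraries, while RNA was highest at 19 h. On the log2 scale its TE change was 1.73 ± 0.014, 0.32 ± 0.015, 2.04 ± 0.013 and 1.65 ± 0.014 at 2, 4, 6 and 19 h, where the error is the counting SE. In the control FN1 had 0.118 units of Ribo-Seq per unit of RNA-Seq, at the 0.20 percentile of tested genes. At 19 h the ratio was 0.37, at the 10.7 percentile, so FN1 stayed in the lower part of the range in every library. FN1 took 1.11% of all RNA-Seq reads in the control and 1.88% at 19 h. Of Ribo-Seq reads it took 0.131% in the control, 0.424%, 0.196% and 0.62% at 2, 4 and 6 h, and 0.696% at 19 h.

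Thrombospondin-1 (THBS1, ENSG00000137801) is a matricellular glycoprotein that binds CD47 and can activate latent TGF-beta. Its RNA level was 1003 FPKM in the control and 1266, 1413, 1378 and 1645 FPKM at 2, 4, 6 and 19 h. The Ribo-Seq level of THBS1 was 601 FPKM in the control and 1515, 982, 1990 and 2198 FPKM later. It had the highest Ribo-Seq level of the members in all 5 libraries, although FN1 had the higher RNA level in 4 of 5. Its TE change at 2 h, 0.998 ± 0.0085, was just under the call, and the later values were 0.21 ± 0.0087, 1.27 ± 0.0083 and 1.16 ± 0.0084. THBS1 differed from the other tested members in its starting TE, with 0.599 units of Ribo-Seq per unit of RNA-Seq in the control at the 28.6 percentile. The coding share of the transcripts was not corrected for in these comparisons between genes.

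Tenascin-C (TNC, ENSG00000041982) is a hexameric matricellular glycoprotein made in wounds and tumour stroma. Its RNA level was 285 FPKM in the control and 299, 340.2, 337 and 370.4 FPKM at 2, 4, 6 and 19 h. In Ribo-Seq it was at 41.3 FPKM in the control and 179, 63.2, 192 and 204 FPKM later. RNA differed by at most 0.38 on the log2 scale, whereas the TE change at 2 h was 2.05 ± 0.028, the largest of the tested members. The later TE changes were 0.36 ± 0.031, 1.98 ± 0.028 and 1.92 ± 0.028.

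**Figure D1:**
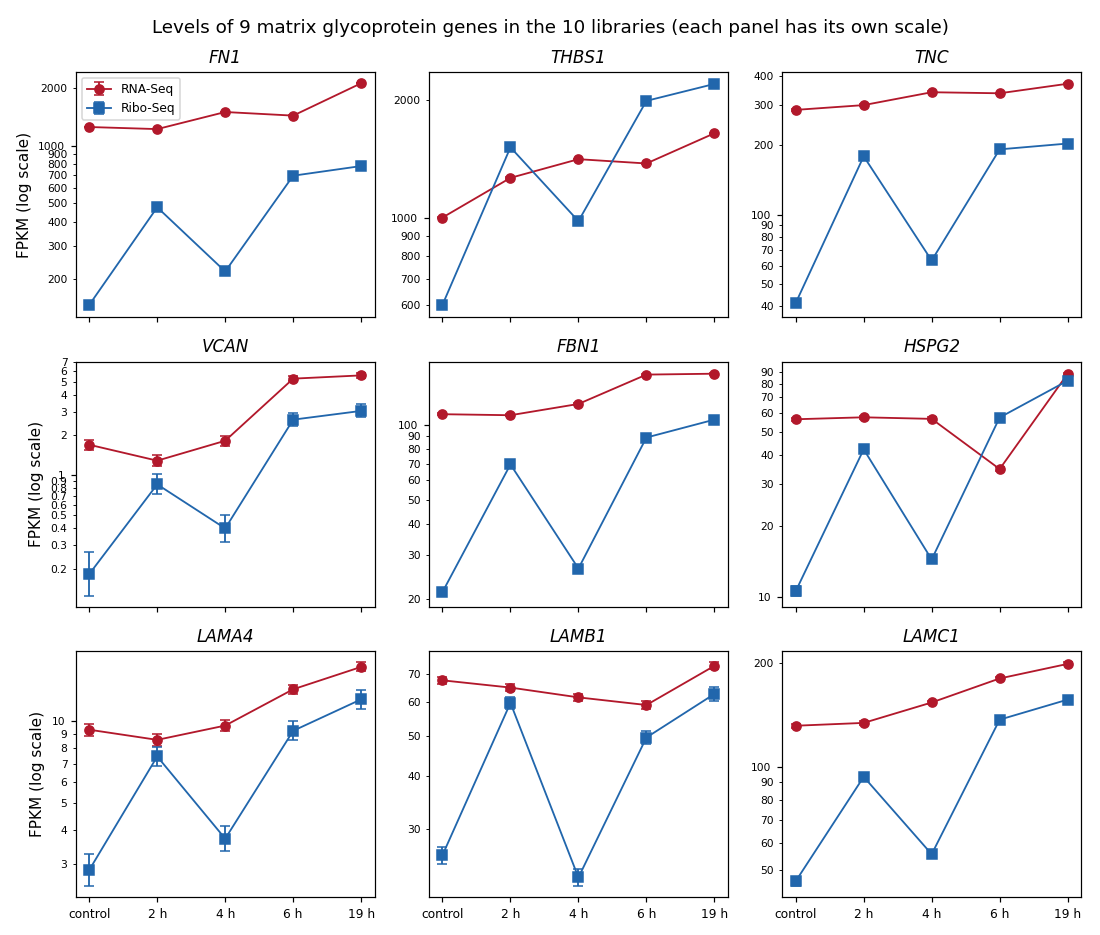
Levels of the 9 measured members in FPKM (log scale, each panel with its own range) in the control and at 2, 4, 6 and 19 h of nutlin-3a, RNA-Seq as red circles and Ribo-Seq as blue squares, 1 library per point, with bars for the 95% counting interval. The blue line of each of the 8 tested members is low in the control and at 4 h and high at 2, 6 and 19 h, as for TNC with 41.3 and 63.2 against 179, 192 and 204 FPKM. In VCAN the 2 h value (0.855 FPKM) lies well below those of 6 and 19 h (2.61 and 3.04). The red line spans a narrower range in each gene.

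Fibrillin-1 (FBN1, ENSG00000166147) forms the microfibrils that carry elastin and bind latent TGF-beta. Its RNA level was 110.3 FPKM in the control and 109, 121, 159 and 160.2 FPKM at 2, 4, 6 and 19 h. Its Ribo-Seq level was 21.4 FPKM in the control and 69.4, 26.6, 88.9 and 105 FPKM later. Its TE change was 1.71 ± 0.032, 0.18 ± 0.036, 1.53 ± 0.032 and 1.754 ± 0.032 at 2, 4, 6 and 19 h. The 4 h value was close to the median of all tested genes at that time, 0.179.

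Perlecan (HSPG2, ENSG00000142798) is the large heparan sulphate proteoglycan of basement membranes and, at 14327 nt, the longest transcript of the set. Its RNA level was 56.6 FPKM in the control and 57.7, 56.8, 34.8 and 88.0 FPKM at 2, 4, 6 and 19 h. The Ribo-Seq level of HSPG2 was 10.6 FPKM in the control and 42.2, 14.4, 57.6 and 82.4 FPKM later. The RNA library of 6 h was thus the lowest and that of 19 h the highest, with log2 changes of -0.70 ± 0.016 and 0.64 ± 0.013. Density did not follow that dip, and the TE change of 3.14 ± 0.041 at 6 h was the largest of any member at any time. At the other times its TE change was 1.97 ± 0.041 (2 h), 0.44 ± 0.046 (4 h) and 2.32 ± 0.040 (19 h). In the 6 h library HSPG2 had 1.65 units of Ribo-Seq per unit of RNA-Seq, at the 87.0 percentile of tested genes, against 0.188 and the 0.73 percentile in the control.

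The laminin chains LAMA4, LAMB1 and LAMC1 assemble as alpha, beta and gamma chains of one trimer, laminin-411, in mesenchymal and vascular basement membranes. LAMA4 (ENSG00000112769), the alpha-4 chain, had an RNA level of 9.32 FPKM in the control and 8.55, 9.65, 13.1 and 15.9 FPKM at 2, 4, 6 and 19 h. In Ribo-Seq it was at 2.84 FPKM in the control and 7.43, 3.71, 9.23 and 12.1 FPKM later, from 219 reads in the control to 611 at 19 h. Its TE change was 1.51 ± 0.13, 0.33 ± 0.13, 1.21 ± 0.12 and 1.32 ± 0.12 at 2, 4, 6 and 19 h. LAMA4 was the lowest of the 3 chains in every library of both assays.

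LAMB1 (ENSG00000091136), the beta-1 chain, had an RNA level of 67.7 FPKM in the control and 65.1, 61.6, 59.1 and 73.3 FPKM at 2, 4, 6 and 19 h. Its Ribo-Seq level was 25.9 FPKM in the control and 59.8, 23.0, 49.5 and 62.8 FPKM later. It was the single member whose density at 4 h lay below the control, by a log2 change of -0.18 ± 0.048. It was also the member that missed the call in density at 6 h, with 0.93 ± 0.044. Its TE change was 1.26 ± 0.046, -0.042 ± 0.052, 1.13 ± 0.049 and 1.16 ± 0.048 at 2, 4, 6 and 19 h. LAMB1 is also the member with the pyrimidine start printed above (CTTCT), and no relation of that start to its values was tested.

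LAMC1 (ENSG00000135862), the gamma-1 chain shared by most laminins, had an RNA level of 132 FPKM in the control and 134, 154, 181 and 199 FPKM at 2, 4, 6 and 19 h. The Ribo-Seq level of LAMC1 was 46.3 FPKM in the control and 93.4, 55.6, 137 and 157 FPKM later. Its TE change of 0.98 ± 0.030 at 2 h was the smallest of the tested members. Later it was 0.036 ± 0.031 (4 h), 1.11 ± 0.029 (6 h) and 1.16 ± 0.029 (19 h). The ratio of the gamma-1 to the beta-1 chain was higher at 4, 6 and 19 h than in the control in both assays. LAMC1 over LAMB1 was 1.94 in RNA-Seq FPKM in the control and 2.06, 2.49, 3.06 and 2.72 later. In Ribo-Seq FPKM the same ratio was 1.79, 1.56, 2.42, 2.77 and 2.496.

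Versican (VCAN, ENSG00000038427), a large chondroitin sulphate proteoglycan that binds hyaluronan, was the scarcest member and the one with the largest RNA change. Its RNA level was 1.69 FPKM in the control and 1.29, 1.82, 5.30 and 5.60 FPKM at 2, 4, 6 and 19 h. In Ribo-Seq it was at 0.182 FPKM in the control and 0.855, 0.40, 2.61 and 3.04 FPKM later, from 27, 128, 73, 332 and 297 reads. Its RNA at 6 and 19 h was above the 3 earlier libraries, with log2 changes of 1.65 ± 0.072 and 1.73 ± 0.072. The floor of 1 FPKM sets 3 of its 5 Ribo-Seq values to the same number, so its floored TE changes (0.396, -0.0995, -0.26 and -0.12) do not measure it. Without the floor, an alternative chosen after seeing the data, its TE change was 2.63 ± 0.32, 1.04 ± 0.34, 2.198 ± 0.298 and 2.33 ± 0.299 at 2, 4, 6 and 19 h. Without the floor VCAN, like each tested member, had its lowest TE change at 4 h.

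**Figure D2:**
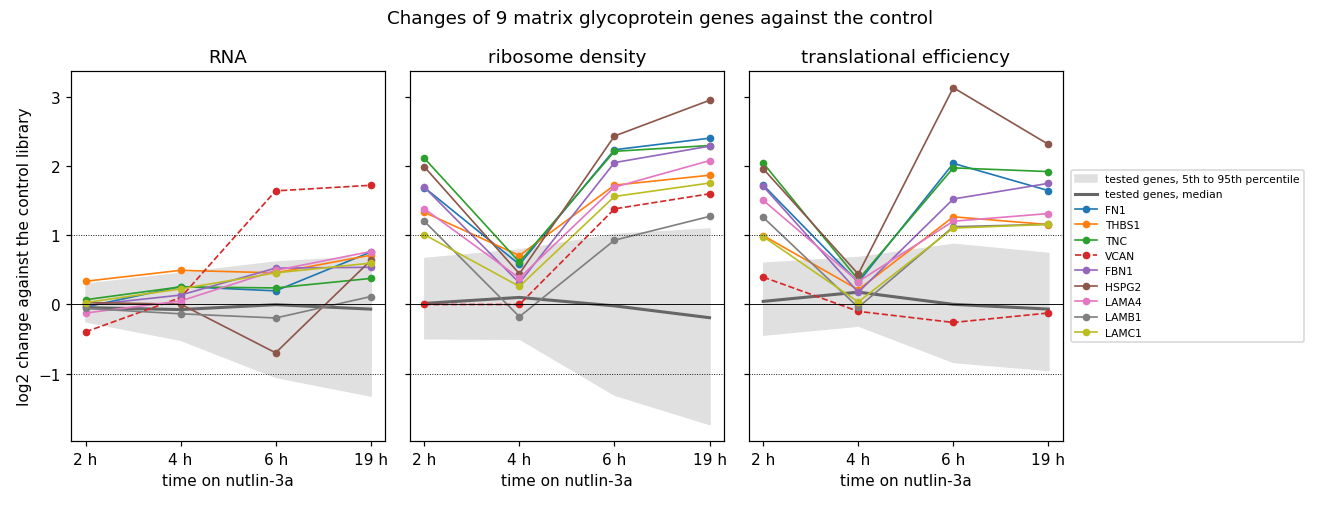
Log2 changes against the control library (vertical axis) at 2, 4, 6 and 19 h for RNA, ribosome density and TE, 1 coloured line per member. The grey band spans the 5th to 95th percentile of 7015 tested genes, the thick grey line is their median, and dotted lines mark 2-fold. VCAN is dashed because the floor of 1 FPKM holds its density and TE. In TE the 8 tested members lie between 0.98 and 3.14 at 2, 6 and 19 h and between -0.042 and 0.44 at 4 h, while in RNA they lie between -0.70 and 0.77.

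Over the 8 tested members the median RNA change was 0.0069, 0.18, 0.35 and 0.62 at 2, 4, 6 and 19 h, against medians of -0.045, -0.074, -0.0024 and -0.067 over all tested genes. The 19 h RNA values were above the control in all 9 measured members, from 0.11 for LAMB1 to 1.73 for VCAN. Of the 7015 tested genes, 3002 were above the control in RNA at 19 h. Among other cell types, the 5 smooth muscle markers summed to between 89.3 and 139.7 FPKM in RNA-Seq. One of them, ACTA2, an actin that activated fibroblasts also make, stood at 21.5 FPKM in the control and 95.4 at 19 h, while SMTN stood at 66.3 and 42.5 FPKM, CNN1 at 1.19 and 0.29, and MYH11 stayed at or below 0.305. DES was not listed in the RNA-Seq table. The part of these markers in the RNA differences was not tested. In such bulk libraries, fewer cells of a kind and less RNA per cell cannot be told apart. The median density change was 1.54, 0.41, 1.89 and 2.19, against 0.016, 0.10, -0.020 and -0.19 over all tested genes. The median TE change was 1.61, 0.27, 1.399 and 1.48, against 0.045, 0.18, 0.0021 and -0.067. At 4 h the members' median TE change was thus within 0.1 of that of all genes.

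TE levels show where the members stood before any ratio to the control was taken. Ranks between genes were not corrected for the coding share of each transcript. In the control 7 of the 8 tested members were below the 10th percentile of TE among tested genes and 4 were below the 1st. At 4 h the same counts were 7 and 3. At 2 h 1 member, FN1, was below the 10th percentile, and at 6 and 19 h none was. The median member percentile was 2.54 in the control and 36.1, 3.57, 40.7 and 48.3 at 2, 4, 6 and 19 h. THBS1 aside, the tested members thus had low Ribo-Seq for their RNA-Seq level in the control and 4 h libraries, and most were nearer the middle of the range in the other 3. Together the 9 members took 0.724% of Ribo-Seq reads in the control and 1.99%, 1.12%, 2.65% and 2.97% at 2, 4, 6 and 19 h. Their share of RNA-Seq reads was 2.47%, 2.66%, 3.08%, 3.03% and 3.98% in the same order.

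Between neighbouring times, density was lower at 4 h than at 2 h in 8 of 9 members, 6 of them by 2-fold or more, where 1.55% of tested genes were called lower. Floored VCAN was at 1 FPKM in both. From 4 to 6 h density was higher by 2-fold or more in 9 of 9, with floored VCAN among them, where 2.48% of tested genes were called higher. From 6 to 19 h the members' density was higher by 0.084 to 0.52, with a median of 0.22. Of the members 0 were past 2-fold higher in that step, where 0.057% of tested genes were. The RNA differences from 2 to 4 h were between -0.078 and 0.496 on the log2 scale.

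Transcript length moved with the TE change. All 9 measured members have transcripts of 5766 nt or more, against a median of 2603 nt over tested genes. The fitted TE change per doubling of length was 0.11, -0.018, 0.17 and 0.15 at 2, 4, 6 and 19 h over 7014 genes with a recovered length. Among 175 other tested genes of 8000 nt or more, the median TE change was 0.34, 0.17, 0.52 and 0.29, and 14.3%, 0.571%, 29.7% and 18.3% were called higher. Among the 609 tested non-members of at least 5766 nt the medians were 0.20, 0.15, 0.21 and 0.096. The length trend thus had the members' time course, with 2, 6 and 19 h apart from 4 h, at a smaller size. With the trend removed, 6, 0, 4 and 6 of the 8 tested members were past 2-fold higher in TE, where 0.684%, 0.228%, 2.4% and 2.3% of the 7014 genes were. The lowest was LAMC1 with 0.75 at 2 h, 0.82 at 6 h and 0.986 at 19 h, and the highest was HSPG2 with 2.70 at 6 h. The part of length in the members' changes was not tested further.

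**Figure D3:**
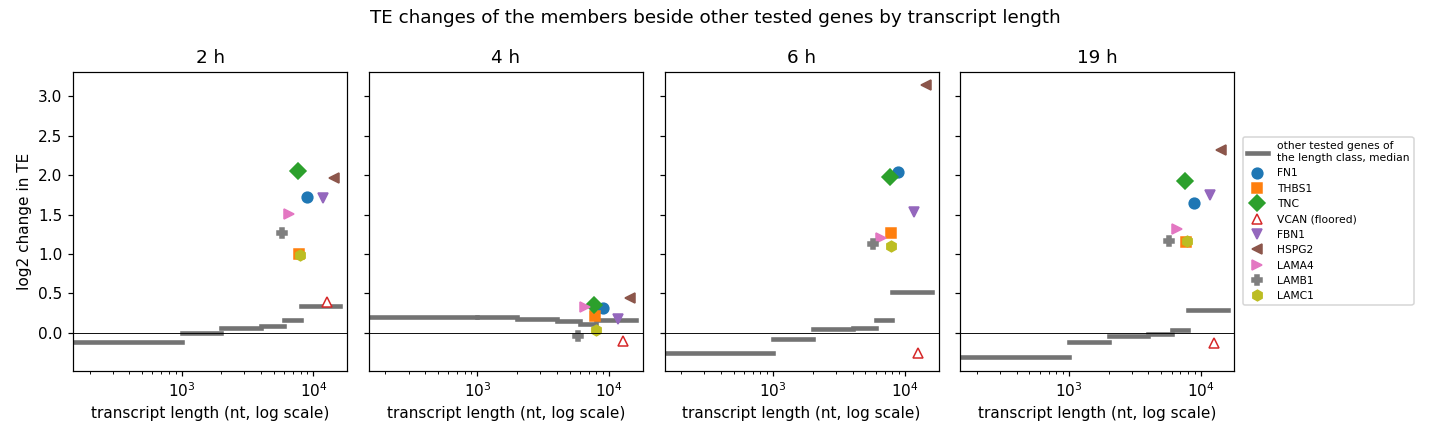
Log2 change in TE against the control (vertical axis) by transcript length in nt (log scale) at each of the 4 times. Coloured symbols are the members, open for floored VCAN, and grey bars give the median of the other tested genes in each length class. At 2, 6 and 19 h the grey bars step up with length to 0.34, 0.52 and 0.29 in the longest class, and the 8 tested members lie above them, whereas at 4 h members and bars overlap.

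There were 6 lists of related genes, written from general knowledge with earlier results of these data known, and the members were left out of them. Of 22 basement membrane genes, the partners of laminin and perlecan, 14 were tested, and 10, 0, 12 and 11 of them were called higher in TE at 2, 4, 6 and 19 h, with medians of 1.16, 0.155, 1.34 and 1.39. Of all tested genes 1.14%, 0.87%, 3.21% and 1.94% were called higher. The 14 basement membrane genes had a median length of 6072.5 nt, so they were long as well. COL4A5 and LAMB3 were called at 2, 6 and 19 h, but passed the filter in Ribo-Seq only through 6 and 19 h, where they were high. COL4A2, the collagen IV alpha-2 chain, had TE changes of 1.69, 0.46, 1.97 and 2.01 at 2, 4, 6 and 19 h. COL18A1, the collagen XVIII chain that gives rise to endostatin, had 1.23, 0.42, 1.93 and 1.68, and the heparan sulphate proteoglycan agrin (AGRN) had 1.19, 0.33, 1.95 and 1.63. Not all of the 14 had such values. SPARC, a collagen-binding glycoprotein, had TE changes of 0.22, -0.036, 0.065 and 0.20, and fibulin-1 (FBLN1) had 0.42, -0.045, 0.96 and 0.53, both named after their values were seen. In RNA the list's one gene past 2-fold at 2 or more times was COL4A5, with changes of 1.00 at 6 h and 1.25 at 19 h.

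Elastic fibre and microfibril genes, around fibrillin, had 13 of 21 tested and 2, 0, 6 and 4 called higher in TE. The shares over all tested genes, for this list and the next lists alike, were 1.14%, 0.87%, 3.21% and 1.94%. LTBP2, a latent TGF-beta binding protein found on microfibrils, had TE changes of 1.33, 0.27, 1.72 and 1.49. EMILIN1, a glycoprotein of elastic fibres, had 1.07, 0.44, 1.27 and 1.24, and the collagen and elastin cross-linking enzyme LOXL2 had 0.87, 0.36, 1.11 and 1.25. LTBP2, and ADAMTSL4 (called at 6 h), passed the filter in Ribo-Seq only through treated libraries, with 2.62 and 4.68 FPKM in the control. Of 26 matricellular and adhesive glycoproteins 11 were tested and 1, 0, 1 and 1 were called higher in TE, THBS2 with 1.06, 0.17, 1.28 and 1.24. Of 24 proteoglycans 11 were tested and 1, 0, 3 and 2 were called higher, among them CSPG4 (1.27, 0.15, 1.89 and 1.83) and the glypican GPC1 (0.61, 0.48, 1.17 and 1.05).

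Few receptor and signalling genes were called higher in TE, as among all tested genes, where 1.14%, 0.87%, 3.21% and 1.94% were at 2, 4, 6 and 19 h. Of 22 matrix receptors, mostly integrins, 14 were tested and 0, 0, 1 and 1 were called higher in TE, ITGA3 with 1.04 at 6 h and 1.022 at 19 h. The collagen-binding integrin chain ITGA2 instead had RNA changes of 1.66 at 4 h, 1.22 at 6 h and 1.021 at 19 h. Of 18 TGF-beta signalling genes 14 were tested, and none was called higher in TE at any of the 4 times. SKIL was called lower at 19 h (-1.10), where 4.21% of all tested genes were called lower. The tested genes of the other lists were shorter than the 6072.5 nt of the basement membrane list. Their median lengths were 3549 nt (elastic fibre), 2522 nt (matricellular), 3046 nt (proteoglycans), 4664 nt (receptors) and 4038 nt (TGF-beta). The part of length in the order of the lists was not tested. Whether the lists differ from each other or from the members was not tested.

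**Figure D4:**
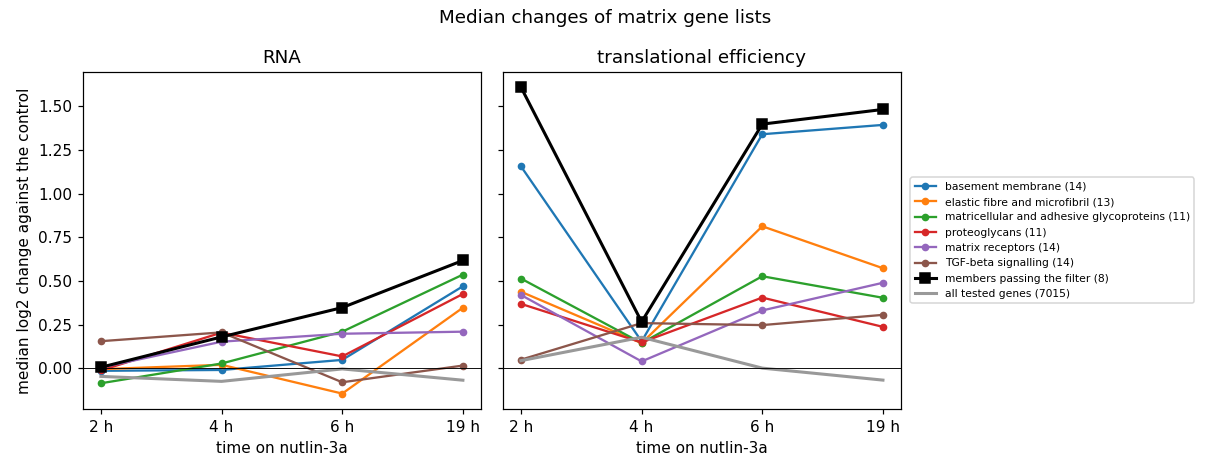
Median log2 change against the control (vertical axis) at 2, 4, 6 and 19 h in RNA and in TE for 6 lists of matrix genes (number tested in brackets), the 8 tested members (black squares) and all 7015 tested genes (grey). In TE the basement membrane list (1.16, 0.155, 1.34 and 1.39) lies below the members (1.61, 0.27, 1.399 and 1.48) at each time and above the other lists at 2, 6 and 19 h, and the medians are nearest each other at 4 h. The basement membrane list also has the longest transcripts, with a median of 6072.5 nt against 2522 to 4664 nt in the other lists.

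The tested non-members nearest to the mean TE course of the 9 members (floored VCAN included), by the Euclidean distance over the 4 log2 changes, were LAMB3, CNTNAP1, DYNC1H1, LTBP2 and LAMB2. LAMB3, the laminin beta-3 chain, was the closest, at a distance of 0.15 with changes of 1.305, 0.31, 1.47 and 1.397, where the members' mean was 1.40, 0.19, 1.46 and 1.37. LAMB3 passed the filter only through the RNA-Seq library of 19 h (5.48 FPKM, against 4.28 in the control) and the Ribo-Seq libraries of 6 and 19 h (5.63 and 6.66, against 1.98). LTBP2 passed in Ribo-Seq only through the treated libraries (2.62 FPKM in the control). The order depended on VCAN, whose floored values do not measure it. With the mean taken over the 8 tested members, an alternative chosen after seeing the data, the nearest were COL16A1, LAMB2, LTBP2, COL12A1 and PRKDC, and LAMB3 was not among them. Not all of these neighbours are matrix genes, with DYNC1H1, the heavy chain of cytoplasmic dynein, as an example. For the RNA course the nearest were COL5A1, at a distance of 0.10, DNASE2, SLC12A4, IGFBP4 and PYCARD, and over the 8 tested members they were MXRA8, ITGA11, SYNPO, SLC9A7 and IGFBP7. PYCARD passed the filter in RNA-Seq only from 4 h on, and SYNPO in Ribo-Seq only at 19 h.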

How the data were processed

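RNA-Seq and Ribo-Seq were measured in BJ-hTERT cells at 5 conditions with 1 library each, grouped by the sample labels. The authors mapped reads with Bowtie to protein-coding transcripts of Ensembl release 65, 1 isoform per gene, and kept unique hits, so paralogs lost the reads they share. The authors deposited FPKM with 3 decimals, in 2 tables of 5 columns. Which assay a table holds was taken from its name. The name of the Ribo-Seq table gives that assay alone, and the name of the other gives both. The column names give no assay, so it was inferred that the other table holds RNA-Seq. The methods count Ribo-Seq reads in the coding sequence while the column names say total, so reads outside it may be included. The same length per transcript fitted the values of both assays.

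FPKM values are whole reads scaled by length and library total. The steps between values gave back lengths (for 99.96% of 11258 transcripts) and totals, a procedure tested on simulated data. Read numbers gave counting errors as the square root of the summed inverse read numbers, divided by the natural log of 2. PCR copies were not distinguishable, so errors cover counting only. The totals are those the FPKM were scaled to. A floor of 1 FPKM was set before log2 ratios to the control in RNA, ribosome density and TE. Tested genes had at least 5 FPKM in 1 or more libraries of each assay, and calls were made at 2-fold. Alternatives were a floor of 5 FPKM, a pseudocount of 1 FPKM, no filter, a mean of at least 20 FPKM, a call at 1.5-fold, a cut-off of 1.75 SDs over 200 genes of like level, centring on the median, removal of the length trend, the 2 h library as baseline, and, added later, no floor.

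Members, lists and rules were chosen with earlier results of these data known. Named besides the members are CDKN1A, MDM2 and the 5 genes nearest to the members' course. By rule, list genes past 2-fold in the same direction at 2 or more times are named, at most 3 per list and quantity. SPARC, FBLN1, ADAMTSL4 and SKIL were named for their values, outside this rule. The genes nearest to the course of the tested members alone were also added outside it. Start windows came from RefSeq (GRCh38.p14). Other cell types were checked by marker lists. The immune list had 1 of 4 markers (CD68) and the smooth muscle list 2 of 5 (ACTA2 and SMTN) at 5 FPKM or more. Python 3.11.15, numpy 2.4.6, pandas 2.3.3 and matplotlib 3.10.9 were used.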

Additional observations from a re-analysis of the deposited data

Results flagged for a closer look

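Of 27 gene and quantity pairs of the members, 5 had changes in opposite directions at different times that were each over 0.1 on the log2 scale and larger than their 95% counting error. Floored VCAN in TE was not among them, since its 95% counting error was larger than its changes. The rule was applied to the members alone, so the count has no share over all tested genes beside it. Nothing is read from its size. With 1 library per time the differences between times were not tested.

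The RNA of HSPG2 (perlecan) was -0.70 at 6 h and 0.64 at 19 h. LAMA4 RNA was -0.12 at 2 h against 0.49 and 0.77 at 6 and 19 h. LAMB1 RNA was -0.13 and -0.20 at 4 and 6 h against 0.11 at 19 h. In ribosome density LAMB1 had -0.18 at 4 h against 1.205, 0.93 and 1.28 at 2, 6 and 19 h. VCAN RNA was -0.40 at 2 h against 1.65 and 1.73 at 6 and 19 h, from control and 2 h values under 2 FPKM.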

How the results depend on the processing

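No paired analysis was possible because each group held 1 library per assay, and no replicate could be left out. Of the 12 counts of tested members past 2-fold, all stayed within 1.5 times of the reported count with a floor of 5 FPKM, a pseudocount of 1 FPKM, a mean of at least 20 FPKM, no floor, and centring, which removed medians of up to 0.18 in TE and -0.19 in density.

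The 2 h library as baseline changed most. The count past 2-fold was 6 at 4 h (lower), 1 at 6 h and 0 at 19 h in TE, and in density 6 (lower), 0 and 0. Of tested genes, 0.513% were lower in TE at 4 h, and 0.841% and 0.428% higher at 6 and 19 h. In density 1.55% were lower at 4 h, and 2.28% and 2.75% higher at 6 and 19 h. Among changes past 2-fold against the control, relative to 2 h TE was reversed at 6 h for FBN1 (-0.18), LAMA4 (-0.30), LAMB1 (-0.14), TNC (-0.071) and DYNC1H1 (-0.20), and at 19 h for FN1 (-0.080), LAMA4 (-0.19), LAMB1 (-0.10), TNC (-0.12), DYNC1H1 (-0.23) and the members' median (-0.018). Density was reversed for LTBP2 at 4 h (-0.31), CNTNAP1 at 6 h (-0.24) and DYNC1H1 at 6 h (-0.30) and 19 h (-0.30). Among smaller changes, 7 of the 8 tested members went from above the control to below 2 h at 4 h in both density and TE (HSPG2 TE to -1.53), and LAMB1 did in density at 6 h (-0.27). With the length trend removed, 4 members were past 2-fold higher in TE at 6 h, where 2.4% of 7014 genes were. A call at 1.5-fold gave 1 member lower at 6 h and 5 higher at 19 h in RNA, and 2 higher at 4 h in density. In those directions 11.6%, 7.13% and 10.4% of tested genes were called. The sliding cut-off gave 1 higher in RNA at 2 h and 1 at 4 h, and 1 higher in density at 4 h. Of tested genes 3.55%, 3.66% and 6.49% were called higher. Without the filter, VCAN made the RNA count 1 higher at 6 h and 1 at 19 h, where 1.87% and 2.64% of 11258 genes were called higher. The cause was not tested. Depth limits VCAN most, with 27 Ribo-Seq reads in the control, and LAMA4, with 219.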
